A study of Mus musculus with 2 samples.

Results

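The genes described here encode the SMN complex, the methylosome that works with it, and the Sm and Lsm proteins that form the rings of small nuclear ribonucleoprotein particles (snRNPs). Members were taken by symbol from a table of ribosome footprints: every gene with a protein-coding transcript named Smn1, Strap, Prmt5, Wdr77 or Clns1a, or starting with Gemin, Snrp, or Lsm and a digit. This gave 36 of the 45578 genes in the table, of which 21874 were protein coding. All 36 identifiers were found in the name table with the same symbol. A pseudogene, Snrp1c-ps2, matched the name but has no coding transcript and was left out. It had 1 count in replicate 1 and 0 in replicate 2. By role, 8 members belong to the SMN complex, 3 to the methylosome, 8 to the Sm ring, 4 to the proteins specific to U1 or U2 snRNPs, 8 to the Lsm rings, 2 to the U7 snRNP, and 3 are other Lsm proteins.

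The data are 2 biological replicates of 1 group, brains taken on postnatal day 5 from mice of the Taiwanese strain of spinal muscular atrophy, with the genotype Smn+/-; SMN2tg/0 on a congenic FVB background. Both replicates thus have 1 functional copy of mouse Smn and carry the human SMN2 transgene. The labels call them controls, and no mouse with full Smn and no Smn-null mouse is compared here, so nothing below measures an effect of the genotype. RiboLace uses beads with a puromycin analogue to pull down translating ribosomes; the fragments of 25 to 35 nucleotides that these ribosomes protected were sequenced. The labels call the replicates biological without saying what separated them.

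SMN, with the Gemin proteins and Strap (also called Unrip), loads Sm proteins onto small nuclear RNAs in the cytoplasm. Before that step the methylosome, Prmt5 with Wdr77 and the chaperone Clns1a (pICln), binds Sm proteins and methylates arginines in some of them. The Sm ring then stays on the spliceosomal RNAs, while Lsm proteins form related rings on U6 RNA in the nucleus and on messenger RNAs under decay in the cytoplasm. Low SMN protein causes spinal muscular atrophy, a disease of motor neurons.

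Gene counts summed to 343552 in replicate 1 and 120282 in replicate 2, so that replicate 1 was 2.86 times as deep. Neuronal markers held 0.766% of gene counts in replicate 1 and 0.776% in replicate 2, and astrocyte and radial glia markers 0.225% and 0.233%. All 8 and all 7 of these genes had counts. Of the markers of other cell types in brain, each list had counts for every gene, from 0.0163% of counts for endothelium to 0.410% for red blood cells in replicate 1. Of 4 liver genes, 3 were at 0 in both replicates and the fourth had 1 count. The 5 skeletal muscle genes had 76 and 25 counts, most of them on Acta1, whose sequence is close to that of other actins; Ckm and Tnnt3 were at 0.

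Counts are whole numbers of footprints. To set genes side by side, a count was divided by the effective library size (counts per 1000000, CPM) and then by the length of the coding sequence of the gene's most counted protein-coding isoform, giving CPM per kilobase, called density here. The count is not limited to the coding sequence, as isoforms without one had counts too. Density can thus include footprints in untranslated regions, which can raise it most where the coding sequence is a small part of the transcript. The 36 genes held 837 counts in replicate 1 and 241 in replicate 2. That was 0.2436% of gene counts (95% Wilson interval 0.228 to 0.261) and 0.2004% (0.177 to 0.227). These 2 intervals lay just apart. All intervals cover counting error only: without molecular identifiers, reads copied by PCR cannot be told from separate molecules. Of the counts of protein-coding genes alone, the members held 0.299% (0.280 to 0.320) and 0.274% (0.242 to 0.311), with intervals that overlapped. On the most counted transcript, all 36 genes had a count in replicate 1 and 31 in both replicates, against 10936 of the 21874 protein-coding genes. Genes with an average count of 10 or more over the replicates are called well counted; 19 members were, or 52.8%, and 20.1% of protein-coding genes. These 19 do not stand for the whole list: 11 members had fewer than 10 counts summed over the replicates, and 6 had 10 to 19.

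The Sm ring genes carried 422 of the 837 member counts in replicate 1, or 50.4% (95% Wilson interval 47.0 to 53.8), and 114 of 241 in replicate 2, or 47.3% (41.1 to 53.6). The SMN complex, with as many genes, carried 10.2% (8.29 to 12.4) and 8.71% (5.77 to 13.0). Per coding length the same order held. The median density over the 8 Sm ring genes was 273 CPM per kilobase in replicate 1 and 224 in replicate 2, and over the 8 SMN complex genes 12.7 and 4.95. The Lsm rings had medians of 68.2 and 65.4, the U1 and U2 proteins 60.8 and 69.1, and the methylosome 48.1 and 42.0. The U7 proteins had medians of 53.6 and 77.7 over 2 genes and the other Lsm proteins 64.5 and 106 over 3. Over all protein-coding genes the median of the mean density was 4.61, with 7585 of them at 0 in both replicates. Over the 4392 well-counted ones it was 60.8. Of the 36 members 34 lay above the first of these medians and 19 above the second; all 8 Sm ring genes were above both, and 1 of 8 SMN complex genes, Strap, was above the second. The second median covers well-counted genes alone, while the members set against it include sparser ones. Among the 8 SMN complex genes only Strap was well counted, so for the others the filters were unlike. These are descriptions of levels, and no test was made between roles.

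**Figure D1:**
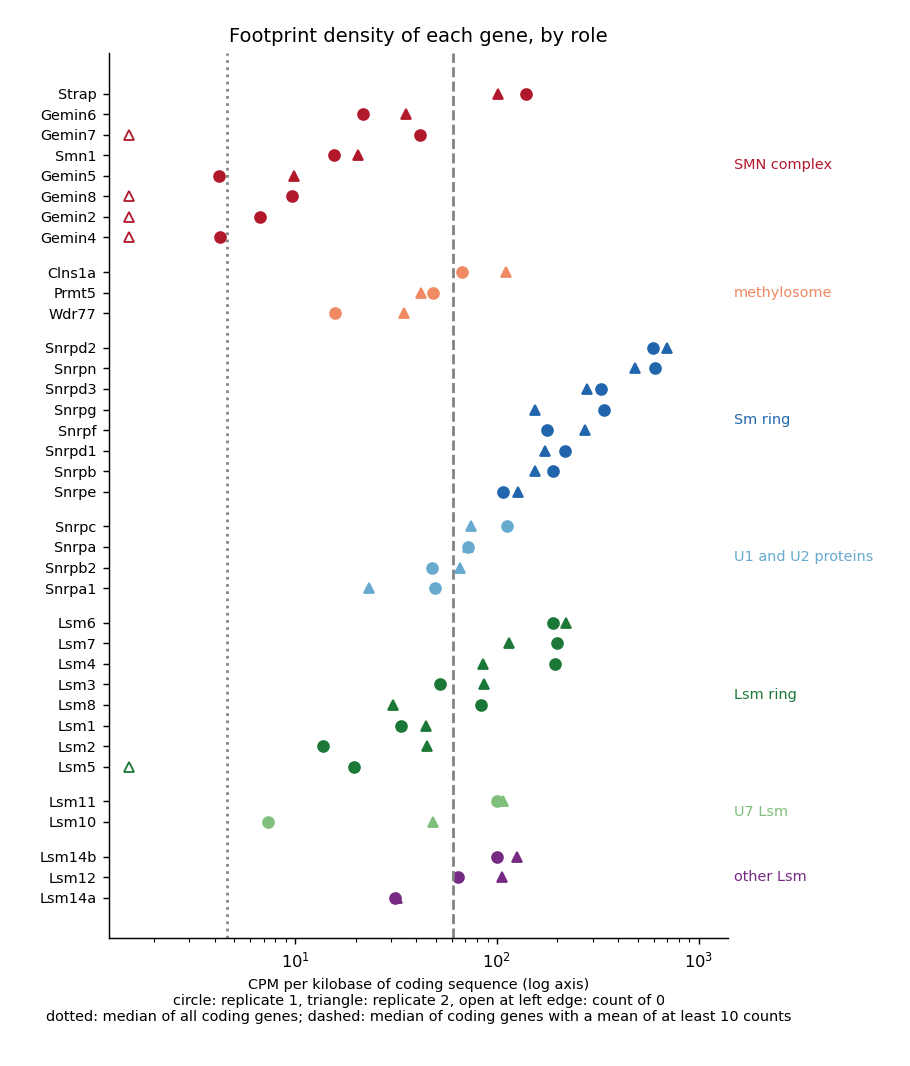
Footprint density of the 36 genes in CPM per kilobase of coding sequence on a log axis, grouped by role, with circles for replicate 1 and triangles for replicate 2; open symbols at the left edge are counts of 0. The 8 Sm ring genes lie right of the dashed line, the median of 60.8 over well-counted protein-coding genes, while 7 of the 8 SMN complex genes lie left of it. None of these 7 was itself well counted.

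Smn1 (ENSMUSG00000021645), the mouse gene present in 1 functional copy, had 5 counts in replicate 1 and 2 in replicate 2. The exact Poisson 95% intervals of these counts run from 1.62 to 11.7 and from 0.242 to 7.22. Over its coding sequence of 867 nucleotides this was a density of 15.6 and 20.6 CPM per kilobase, or 18.1 ± 3.52 (SD, n = 2). The replicates agree within counting error, and 71.9% of protein-coding genes had a lower mean density. That share includes the 7585 of 21874 protein-coding genes with no count on a coding isoform in either replicate. Every gene identifier in the table is a mouse one, so footprints on human SMN2 have no entry of their own. Whether some of them were counted on Smn1 was not tested.

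The Gemin genes were as sparse as Smn1. Gemin5, the large subunit that recognises small nuclear RNAs, had 7 and 5 counts over a coding sequence of 4509 nucleotides, the longest of the 36, and densities of 4.21 and 9.90 CPM per kilobase. Gemin6 had 4 and 2 counts and densities of 21.6 and 35.7. Gemin7, which pairs with Gemin6 in a fold like that of Sm proteins, had 6 and 0 counts, Gemin4 had 5 and 0, and Gemin2, the partner that binds SMN and holds the Sm proteins, had 2 and 0, as did Gemin8. A count of 0 in replicate 2 allows a share of up to 0.00249% of gene counts. Together with Lsm5, with 2 and 0, these were the only members whose representative transcript was at 0 in a replicate, in each case the shallower one. Other coding isoforms of Gemin7 and Gemin8 each had 1 count there. Ddx20, the helicase also known as Gemin3, falls outside the rule by its symbol; it had 10 and 2 counts and a mean density of 9.07 CPM per kilobase.

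Strap was the most counted gene of the SMN complex. This WD-repeat protein, which also takes part in other pathways, had 54 counts in replicate 1 and 12 in replicate 2, more than the 31 and 9 of the other 7 SMN complex genes together. Its densities of 139 and 102 CPM per kilobase, or 120 ± 26.3 (SD, n = 2), did not overlap those of any of these 7, of which the highest value was 41.7 for Gemin7 in replicate 1. In replicate 2 its Poisson interval, 52.6 to 178, overlapped those of Smn1, Gemin6, Gemin7 and Gemin8. In the methylosome, the arginine methyltransferase Prmt5 had 34 and 9 counts and a density of 45.1 ± 4.35 CPM per kilobase (SD, n = 2). Clns1a, with 18 and 9 counts, was at 88.9 ± 30.8 (SD, n = 2). Wdr77, the cofactor that Prmt5 is bound to, had 6 and 4 counts and a density of 25.3 ± 13.4 (SD, n = 2). The replicate ranges of Clns1a, 67.2 to 111, lay above those of Prmt5, 42.0 to 48.1, which lay above those of Wdr77, 15.8 to 34.7, but the Poisson intervals of neighbours in this order overlapped in each replicate.

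Among the Sm ring genes, Snrpd2 and Snrpn were the highest. Snrpd2, which encodes SmD2, had 78 counts in replicate 1 and 28 in replicate 2, and densities of 592 and 700 CPM per kilobase, or 646 ± 76.6 (SD, n = 2). Of all protein-coding genes 99.3% had a lower mean density. Snrpn, which encodes SmN, the form of SmB made mostly in neurons, had 163 and 39 counts and densities of 611 and 482, or 546 ± 91.4 (SD, n = 2). The ranges of these genes overlapped each other. In bulk brain, fewer cells of a type and less RNA per cell cannot be told apart.

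Below them followed Snrpd3 (SmD3) with 46 and 12 counts and densities of 327 and 281 CPM per kilobase, Snrpg (SmG) with 29 and 4 counts and 340 and 155, and Snrpf (SmF) with 17 and 8 counts and 177 and 274. Snrpd1 (SmD1) had 29 and 7 counts and densities of 218 and 174, Snrpb (SmB and SmB′) 49 and 12 counts and 191 and 154, and Snrpe (SmE) 11 and 4 counts and 107 and 128. The ring holds 1 copy of each of its 7 proteins, with SmN able to take the place of SmB. With Snrpb in that place, mean densities differed 5.50-fold between the lowest, Snrpe, and the highest, Snrpd2, whose ranges over the replicates did not overlap. Poisson intervals separated these genes in each replicate, at 53.3 to 191 for Snrpe and 468 to 739 for Snrpd2 in replicate 1, and at 34.9 to 328 and 465 to 1010 in replicate 2. Between these ends, the ranges of Snrpg, Snrpf, Snrpd1 and Snrpb overlapped in every neighbouring pair.

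Snrpn and Snrpb were 3.20-fold apart in density in replicate 1 and 3.13-fold apart in replicate 2. Their proteins are near-identical, and fragments from stretches they share can be counted for both genes, so each value is uncertain. In mammals the SNURF-SNRPN transcript is bicistronic: a short reading frame for the protein SNURF lies upstream of that for SmN. The table has Snurf as a gene of its own (ENSMUSG00000102627), given only as its coding sequence of 216 nucleotides, with 57 counts in replicate 1 and 12 in replicate 2, while the 5′ untranslated region of the representative Snrpn transcript is 464 nucleotides long. In RefSeq, Snurf has 1 promoter window, and it is the same as 1 of the 4 listed for Snrpn. The 100 bases before this shared start on chromosome 7 are shown because RefSeq gives both genes this start site. Whether the counted Snrpn transcript begins there was not tested. The bases lie at chr7:60005200-60005299 on the minus strand of GRCm38.p6, are written 5′ to 3′ on that strand, and end just before the start site at 60005199; capitals mark the 20 bases next to it.

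Shared start of Snurf and Snrpn: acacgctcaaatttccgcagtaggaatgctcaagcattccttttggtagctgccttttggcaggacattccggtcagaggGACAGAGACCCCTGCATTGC

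The counts on Snurf equalled 35.0% of those on Snrpn in replicate 1 and 30.8% in replicate 2. Per coding length Snurf stood at 715 and 496 CPM per kilobase, or 606 ± 155 (SD, n = 2), close to the Snrpn values. If all fragments counted for Snurf were also counted for Snrpn, which was not tested, 106 and 27 counts remain for the rest of Snrpn. Its density would then be 397 and 334, or 365 ± 45.1 (SD, n = 2), in place of 546, and its ratio to Snrpb 2.08 and 2.17. This subtraction was chosen after the values were seen. In values, it leaves Snrpn above Snrpb and Snrpd3 in both replicates and below Snrpd2. No counting interval was computed for the counts that remain. The Poisson intervals of Snrpd3, 240 to 436 and 145 to 491, hold the values of 397 and 334, so the order of Snrpn and Snrpd3 is then not resolved.

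The 4 members specific to the U1 or U2 snRNP had lower mean densities than the Sm ring genes. Snrpc, of the U1 snRNP, had 20 and 4 counts and a density of 93.7 ± 27.2 CPM per kilobase (SD, n = 2). Snrpa, which binds a stem-loop of U1 RNA, had 23 and 7 counts and densities of 72.1 and 72.4. Snrpb2, of the U2 snRNP, had 12 and 5 counts and a density of 56.9 ± 12.7, and its partner there, Snrpa1, had 14 and 2 counts on its coding isoform and a density of 36.3 ± 18.5 (each SD, n = 2). All 4 lay below the lowest replicate value of an Sm ring gene, 107 for Snrpe in replicate 1, except Snrpc in replicate 1 at 113. The Poisson intervals of all 4 overlapped that of Snrpe in each replicate.

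As a fold, the Lsm ring genes covered a wider range of mean density than the Sm ring, with a lowest value that rests on 2 counts. In CPM per kilobase the Sm ring spanned more, from 117 to 646 against 9.82 to 205. Lsm6 had 17 and 6 counts and a density of 205 ± 21.9 CPM per kilobase, Lsm7 23 and 4 counts and 157 ± 60.3, and Lsm4 30 and 4 counts and 140 ± 77.3 (each SD, n = 2). On its shorter isoform with the same coding length, Lsm6 would be at 122 and below both. Lsm3 had 6 and 3 counts, Lsm2 had 2 and 2, Lsm5 had 2 and 0, and the coding isoform of Lsm8, the subunit that marks the nuclear ring, had 9 and 1. Lsm1, which takes its place in the cytoplasmic ring, had 5 and 2 counts. The densities of Lsm8, 83.8 and 30.7, and of Lsm1, 33.7 and 44.4, overlapped. From Lsm2 to Lsm8 the highest mean density was 20.9 times the lowest, 9.82 for Lsm5, but that gene rests on 2 counts. Pooled over their coding length, these 7 genes had 108 CPM per kilobase in replicate 1 and 79.6 in replicate 2, against 274 and 261 for the 7 Sm genes with Snrpb.

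Of the U7 snRNP, which processes histone messages, Lsm11 had 40 and 13 counts and a density of 103 ± 5.01 CPM per kilobase (SD, n = 2), and Lsm10 had 1 and 2 counts. The replicate ranges of these partners, 99.8 to 107 and 7.34 to 48.4, did not overlap, nor did their Poisson intervals in replicate 1, 71.3 to 136 and 0.186 to 40.9. In replicate 2 the intervals, 56.9 to 183 and 5.86 to 175, overlapped. Lsm14b, an Lsm protein of cytoplasmic messenger particles, had 34 and 13 counts and its paralog Lsm14a 16 and 5. Their densities of 113 ± 18.5 and 31.7 ± 0.656 CPM per kilobase (each SD, n = 2) did not overlap in range, but their Poisson intervals in replicate 2, 67.3 to 216 and 10.4 to 75, did. Lsm14b has a pair of coding isoforms with equal counts, and with the longer coding sequence of 1158 nucleotides its density is 89.9 ± 14.6 (SD, n = 2). Lsm12 had 14 and 7 counts and a density of 85.4 ± 29.6 (SD, n = 2).

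Ordered by mean density, 34 of the 35 neighbouring pairs among the 36 genes overlapped in their replicate ranges. The exception was the step from Snrpn, 482 to 611, to Snrpd3, 281 to 327, and in replicate 2 their Poisson intervals, 343 to 658 and 145 to 491, overlapped. The order as a whole was similar in the replicates, with a Spearman rho of 0.872 across the 36 genes. This is a description across genes that share libraries, and each density also depends on the gene's own length. Coding sequences of members were short: their median was 530 nucleotides, against 1140 over all protein-coding genes and 1410 over the well-counted ones. They ran from 231 nucleotides for Snrpg to 4509 for Gemin5. A short gene needs a higher density to reach the same count.

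**Figure D2:**
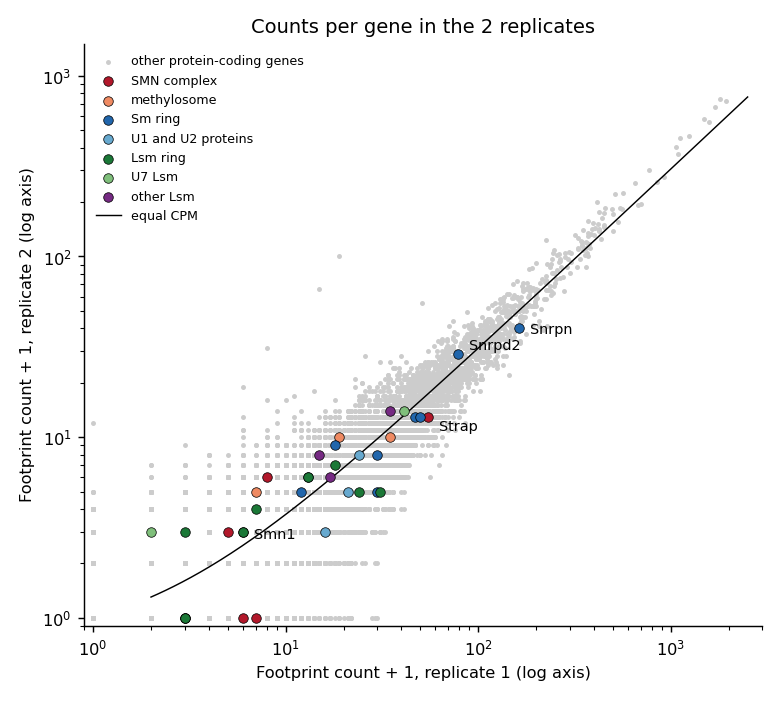
Footprint count plus 1 of each gene in replicate 1 (x axis) and replicate 2 (y axis), both on log axes, with members coloured by role and all other protein-coding genes in grey; the line marks equal CPM. Snrpn, with 163 and 39 counts, is the most counted member, and genes with the same pair of counts, such as Smn1 and Lsm1 at 5 and 2, lie on top of each other.

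With 1 group, replicate can only be set against replicate, which compares libraries and not conditions. None of the 19 well-counted members differed at a Benjamini-Hochberg adjusted p under 0.05 by a 2-sided exact binomial test adjusted over all 5436 genes tested, and none at an unadjusted p under 0.05. Of all genes tested 4.14% were called, and of the 4392 protein-coding genes 0.956%, so that a count of 0 among 19 is near the background. The lowest adjusted p of a member was 0.805 by the exact binomial test, for Snrpg and Lsm4. edgeR's exact test with a preset biological coefficient of variation of 0.2 called none either, and 2.41% of all genes. Nor did the binomial test call a member under the alternatives, where it called 3.66% of all genes with library totals, 0.501% with coding genes alone, 4.16% with the longest coding isoform, 1.75% with at least 1 count in each library, 9.82% with an average count of 50 or more and 7.23% with isoforms summed. Only 2 members were tested at an average count of 50 or more, so the absence of a call there says little. Unadjusted p-values of the exact binomial test were under 0.05 for 5 of 28 members with isoforms summed (lowest adjusted p = 0.185), and for 1 member each with library totals and with at least 1 count in each library. Summing isoforms can count 1 fragment several times, which the binomial test takes as separate counts. The p-values of that setting can thus be too small, and its 7.23% called too high.

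Ratios of replicate 2 to replicate 1, as differences in log2(CPM + 1), had a median of -0.20 over the 19 members, 10 of them below 0 and 9 above. The median was 0.0041 over all genes tested and -0.02 over the protein-coding ones, of which 51.1% lay below 0. Single ratios ran from -1.16 for Lsm4, with 30 and 4 counts, to 0.71 for Clns1a, with 18 and 9. For Snrpn the ratio was -0.34 with an exact binomial 95% interval from -0.89 to 0.17, the narrowest of the 19. For Snrpd2 it was 0.24 (-0.44 to 0.88), for Strap -0.45 (-1.49 to 0.47) and for Snrpg -1.12 (-3.11 to 0.37). All 19 intervals included 0, and their median width was 2.66 on the log2 scale, so that a difference of several fold between the replicates was not detectable for many of these genes.

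**Figure D3:**
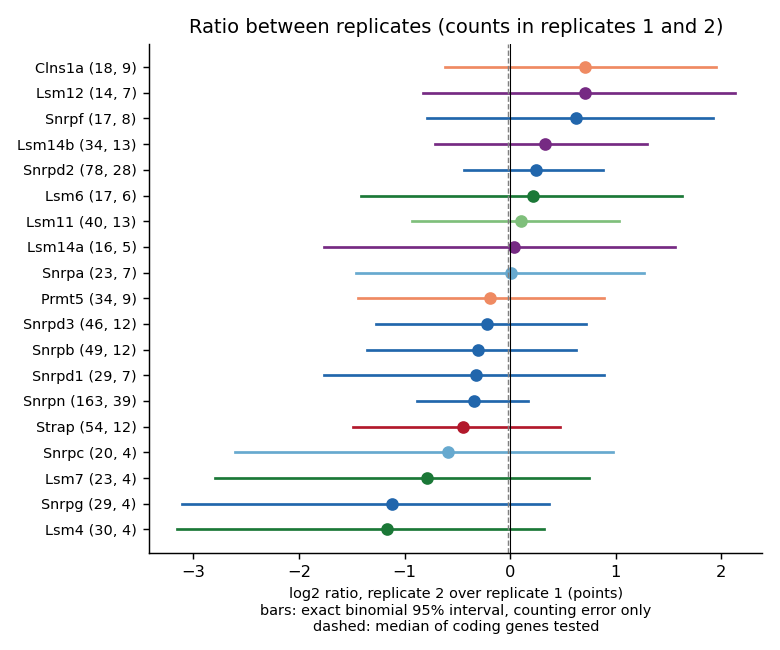
Log2 ratio of CPM in replicate 2 over replicate 1 for the 19 well-counted members (points), with exact binomial 95% intervals that cover counting error only (bars), coloured by role; the counts stand beside each symbol. All 19 bars cross 0, and the narrowest is that of Snrpn, from -0.89 to 0.17.

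The members have 134 annotated transcripts: 72 protein coding, 33 with a retained intron, 19 other processed transcripts and 10 marked for nonsense-mediated decay, the pathway that removes messages with an early stop codon. A count was present on 124 of them. Their counts summed to 1605 in replicate 1 and 478 in replicate 2. The gene level, where only the most counted transcript of each gene is taken, had 837 and 241. Isoforms can share fragments, and these sums do not show how many were shared. A count on a decay or intron-retaining isoform thus cannot be taken as a measure of that isoform alone.

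Snrpb is known to control its own level through a decay isoform. Its coding isoform had 49 counts in replicate 1 and 12 in replicate 2, its decay isoform, with a reading frame of 213 nucleotides in place of 696, had 35 and 15, and its longer intron-retaining isoform had 35 and 13. The decay isoform thus had 71.4% of the coding isoform's counts in replicate 1 and 125% in replicate 2. For Prmt5 the decay isoform had 16 and 7 counts beside 34 and 9 on the coding one. Its intron-retaining isoforms had 6 and 8 counts, and 10 and 7. For Snrpa1 the coding isoform had 14 and 2 counts, and the decay isoform and 1 intron-retaining isoform each had 15 and 2. For Lsm8 the intron-retaining isoform, of 3305 nucleotides, had 12 and 5 counts and the coding one 9 and 1, so the most counted isoform of Lsm8 holds no coding sequence, and that of Snrpa1 is a tie between its decay and intron-retaining isoforms. Their densities above use the coding isoform.

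Some isoform pairs have the same coding length and differ in their untranslated regions. The Snrpn isoform that is 144 nucleotides longer had 146 and 35 counts against 163 and 39 on the other, both with 723 coding nucleotides. The coding isoform of Lsm11 has 4327 more nucleotides of 3′ untranslated region than its decay isoform, which has the same reading frame length of 1086 nucleotides, and 40 and 13 counts against 35 and 10. The longer of these isoforms thus had 5 and 3 more counts. Where on the transcript these counts lie was not tested. The longer isoform of Lsm6 has 1586 more nucleotides in the 3′ and 99 more in the 5′ untranslated region around a coding sequence of 243, and 17 and 6 counts against 12 and 3. On the shorter isoform the density of Lsm6 is 134 and 110 CPM per kilobase, or 122 ± 16.7 (SD, n = 2), in place of 205. The 3 Snrpa isoforms with a coding sequence of 864 nucleotides differ by up to 77 nucleotides in the 5′ untranslated region, and had 23, 21 and 19 counts in replicate 1 and 7, 8 and 10 in replicate 2. The longest had the fewest in replicate 1 and the most in replicate 2, so counts do not simply add up with length.

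**Figure D4:**
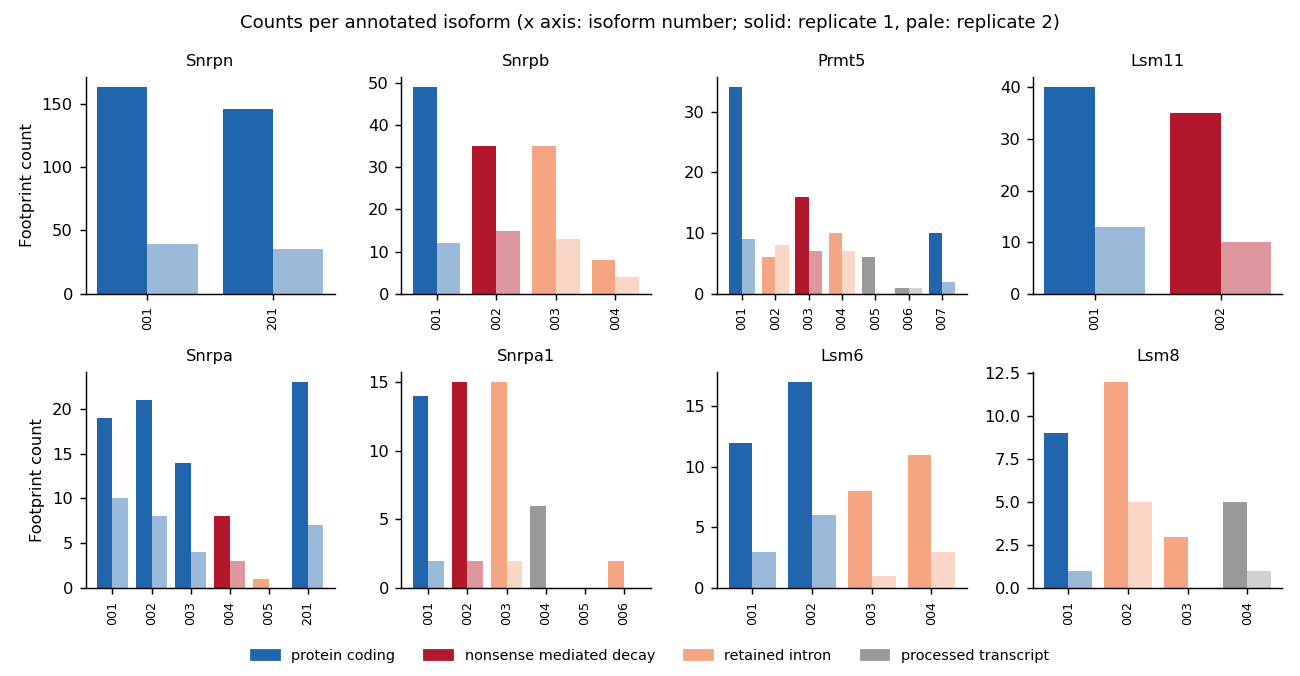
Footprint counts (y axes, each panel with its own scale from 0) on every annotated isoform of 8 members, coloured by transcript class, with solid bars for replicate 1 and pale bars for replicate 2. Decay and intron-retaining isoforms hold counts too: the coding, decay and longer intron-retaining isoforms have 49, 35 and 35 for Snrpb and 14, 15 and 15 for Snrpa1 in replicate 1.

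Other genes of snRNP assembly, transport and splicing, from a list of 57 symbols with 56 matched, gave the setting. Of these, 51 had a count in both replicates and 28 were well counted. None of the 28 was called by the exact binomial test adjusted over all genes, against 4.14% of all genes and 0.956% of protein-coding genes. An unadjusted p under 0.05 was found for 3 of them. Over all 56 matched genes, without a count filter, the median density was 27.6 CPM per kilobase and the median coding length 1526 nucleotides. The highest were the small SF3b subunits Sf3b5, at 183 ± 64.8, and Sf3b6, at 180 ± 19.9, then the U1 protein Snrnp70 at 138 ± 10.7, Sf3b2 at 115 ± 34.2 and Nhp2l1, which binds U4 RNA, at 114 ± 2.36 (each CPM per kilobase, SD, n = 2). Snrnp70, with 65 and 22 counts, thus lay above the other U1 proteins, Snrpc and Snrpa, in replicate range. Its values of 131 and 146 fell within the Poisson intervals of Snrpc, 69.0 to 174 and 20.3 to 191. For Snrpa this held in replicate 2, 29.1 to 149, and not in replicate 1, 45.7 to 108. Of factors that act after SMN, Kpnb1, the importin that carries snRNPs into the nucleus, had 96 and 34 counts. Tgs1, which makes the trimethyl cap, had 12 and 3 counts, Snupn, the import adaptor, 7 and 2, and Coil, the scaffold of Cajal bodies, 8 and 3. Phax, the export adaptor, had 19 and 3.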

How the data were processed

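Footprints were measured in brain from 2 replicates of 1 group. The authors deposited raw counts of footprints per transcript and replicate, not normalized, with transcript, coding and untranslated lengths in nucleotides as other columns per the file headers. The submitters' processing notes name Trimmomatic 0.36, Bowtie2 2.2.6, SAMtools and GRCm38.p4; the counting rule and any rRNA filter are not given in the sources used here. Columns were matched by replicate number and by their words for control and RiboLace. No column of another sample was present.

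Isoforms can share fragments. Summed over transcripts, counts came to 2.12 and 1.87 times those summed over genes. This excess does not by itself show sharing, since a gene takes the count of 1 transcript only. A gene's count is that of its transcript with the highest sum across replicates, ties going to the longer transcript. Density was planned on that transcript; it uses the most counted protein-coding isoform instead, since that of Lsm8 and Snrpa1 has no coding sequence. TMM factors from edgeR 4.0.16 were 1.07 and 0.931, making 1 count worth 2.71 and 8.93 CPM. Genes averaging 10 or more counts were tested with a 2-sided exact binomial test of the replicate counts against the effective library sizes, with Benjamini-Hochberg adjustment over all of them at 0.05; edgeR's quasi-likelihood test has no residual degrees of freedom here. The test was run on simulated data first. Intervals are at 95%, and the limit for a count of 0 is taken at 3 counts. Named genes were Smn1, every member averaging 10 or more counts, and the 5 densest other pathway genes. The other members and Snurf, Ddx20, Tgs1, Snupn, Coil and Phax were named after their values were seen. Members, lists and tests were chosen with earlier results of these data known. Promoter windows are from RefSeq (GRCm38.p6) and held 31 of the 36 members. Alternatives were the scaling, the count filter, the pseudocount, the isoform rule, the length, a preset spread and leaving out each replicate.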

Additional observations from a re-analysis of the deposited data

How the results depend on the processing

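No paired analysis was possible because a single group was measured. The cause of a change was not tested unless the setting itself gives it. The 19 members past the count filter became 31 with a minimum of 1 count per library, 2 with an average of 50 or more and 7 to 23 with a replicate left out. The members' mean share of 0.222% was 0.287% of coding counts. Their median log2 ratio of -0.20 reversed to 0.058 with a minimum of 1 count per library (31 genes) and to 0.001 with isoforms summed (28 genes); with library totals it was -0.40, where the median of all genes moved from 0.004 to -0.20. Among the other pathway genes, library totals called 1, Prpf8 (adjusted exact binomial p = 0.0207), lower in replicate 2.

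Median densities by role (CPM per kilobase) over genes past the filter were 120 for the SMN complex (Strap alone), 67 for the methylosome, 247 for the Sm ring, 82.95 for U1 and U2 proteins, 157 for the Lsm rings, 103 for U7 and 85.4 for other Lsm. Divided by transcript length, which is longer, they were 47.8, 37.5, 103, 50.1, 63.3, 17.4 and 22.3. Without the filter, which admits sparser genes, they were 12.6 for the SMN complex, 45.1 for the methylosome, 64.6 for U1 and U2 proteins, 63.5 for the Lsm rings and 65.6 for U7. With isoforms summed they were 65.5 for the SMN complex, 116 for U1 and U2 proteins, 94.5 for U7, 102 for the Lsm rings and 126 for other Lsm. Leaving out a replicate gave 274 and 327 for the Sm ring. Depth limits these values: 17 members have fewer than 20 counts, and shared fragments leave Snrpb and Snrpn uncertain.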
